A study of Mus musculus with 24 samples.

Results

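A set of 48 germline and meiosis genes was examined for H3K4me3, the trimethyl mark on lysine 4 of histone H3 that surrounds active start sites, in C127, a line of epithelial cells cultured from mouse mammary tissue. The genes were listed by name for their roles in germ cells, so that the rule for membership uses no measured value. The list was nevertheless proposed with earlier results of these data known. All 48 matched the annotation, against 21755 protein-coding genes in all on 19 autosomes and X. A gene was counted as marked when a peak came within 250 bp of a transcription start site (TSS) of any of its GENCODE vM21 basic transcripts. Of the 48 genes 1 was marked, Tex14, and that peak was shared with the head-to-head neighbour Rad51c.

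The study addressed how CFP1, a reader of non-methylated CpGs and H3K4me3, brings the SET1 H3K4 methyltransferase complex to CpG islands, and it mapped CFP1, its mutants and the mark by ChIP-seq. Its series held 24 samples in 12 groups. The values here came from the H3K4me3 ChIP of C127 cells without a transgene or treatment named in the labels (3 replicates), whose consensus list gives 1 set of 13451 peaks with a position and no height. No replicate spread or read depth is therefore known, and no test between samples was possible. All intervals given are 95% Wilson intervals, which cover counting error over genes only. The line is 1 cultured cell line. Of 8 luminal mammary marker genes 2 were marked (25%), Esr1 and Gata3, while Krt8, Krt18, Krt19, Epcam, Cdh1 and Elf5 were not. All 8 had a CpG island at a TSS, and 70.2% of coding genes with one were marked. The Gata3 peak was shared with other genes.

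Germline genes encode the proteins that build sperm and eggs: the piRNA pathway that silences transposons, the synaptonemal complex that pairs chromosomes, the meiotic cohesin and the enzymes that cut and repair DNA in meiosis. They are known to be silent in most somatic cells. Many of them have promoters rich in CpGs, and in somatic tissues DNA methylation, the E2F6 and MGA form of Polycomb repressive complex 1 and H3K9 methylation are known to keep them off. A CpG island is a stretch of DNA dense in CpGs, and in most mammalian genes such an island is free of DNA methylation and carries H3K4me3.

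Some unmarked germline genes had many CpGs in front of a basic TSS and others few. The 250 bases before a basic TSS are given for 4 of the unmarked genes with the most CpGs around the TSS. They are read 5′ to 3′ on the strand of each gene from the GRCm38.p6 reference, with each CpG in capitals. The genes are Dazl (chr17:50292893-50293142), Mael (chr1:166238748-166238997), Tdrd6 (chr17:43630300-43630549) and Ddx4 (chr13:112652476-112652725), all on the minus strand.
Dazl: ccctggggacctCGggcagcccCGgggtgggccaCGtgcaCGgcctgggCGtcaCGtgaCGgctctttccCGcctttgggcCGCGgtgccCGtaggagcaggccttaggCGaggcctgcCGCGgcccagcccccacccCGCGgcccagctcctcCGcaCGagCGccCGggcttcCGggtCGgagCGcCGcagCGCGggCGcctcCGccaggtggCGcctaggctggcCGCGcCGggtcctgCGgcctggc
Mael: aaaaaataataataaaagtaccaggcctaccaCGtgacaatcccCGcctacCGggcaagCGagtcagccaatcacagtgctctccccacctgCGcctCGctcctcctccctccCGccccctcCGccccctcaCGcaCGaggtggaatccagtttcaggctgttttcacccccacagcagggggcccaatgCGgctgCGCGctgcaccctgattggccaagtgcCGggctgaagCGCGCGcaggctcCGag
Tdrd6: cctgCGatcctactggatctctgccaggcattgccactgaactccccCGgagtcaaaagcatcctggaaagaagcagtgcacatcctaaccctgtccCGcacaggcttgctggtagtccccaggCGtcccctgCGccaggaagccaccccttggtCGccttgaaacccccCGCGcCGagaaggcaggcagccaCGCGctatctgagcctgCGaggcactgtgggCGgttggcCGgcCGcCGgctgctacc
Ddx4: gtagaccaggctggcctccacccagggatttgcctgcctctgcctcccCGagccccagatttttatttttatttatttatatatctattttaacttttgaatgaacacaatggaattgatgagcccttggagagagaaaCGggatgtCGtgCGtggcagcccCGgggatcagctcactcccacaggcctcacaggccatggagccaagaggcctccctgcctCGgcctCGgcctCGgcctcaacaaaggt
The run before Dazl held 33 CpGs, that before Mael 18, that before Tdrd6 16 and that before Ddx4 8. The Dazl run precedes the inner of its 2 basic TSSs, at 50292892. The outer TSS, at 50293636, lies further upstream, and the bases before it are not shown. The island of Ddx4 lay mostly downstream of its first TSS, so its 59 CpGs within 250 bp of a TSS are largely outside the bases shown. Tdrd5 had the highest count of the 48 genes, 64 CpGs, and is not shown because an exon of an antisense transcript covers the bases before its start.

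Most germline genes had an island and 1 had a peak. An island, taken as 200 bp or more with at least 0.6 of the CpGs its base composition predicts and a GC fraction from 0.5 upwards, lay within 250 bp of a TSS in 44 of 48 genes (91.7%, interval 80.4 to 96.7%), against 68.1% of coding genes. A peak was present at 1 of 48 germline genes (2.08%, interval 0.369 to 10.9%), against 49.4% of all coding genes (10747 of 21755). Among genes with an island the counts were 1 of 44 germline genes (2.27%, interval 0.402 to 11.8%), against 70.2% of coding genes (10398 of 14808). Coding genes without an island were marked in 5.02% of cases (349 of 6947), so the share of germline genes with an island that were marked lay close to that of genes with no island.

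**Figure D1:**
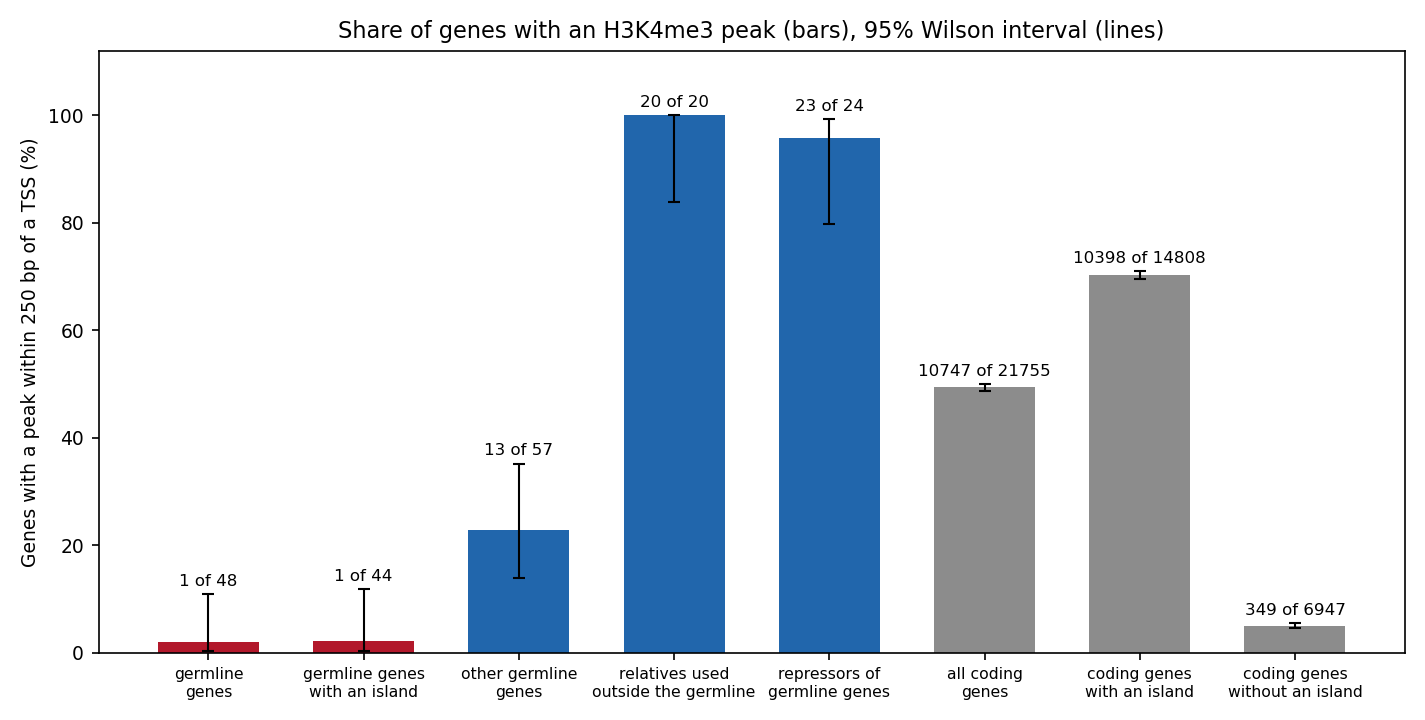
Share of genes with an H3K4me3 peak within 250 bp of a TSS (vertical axis, %), with 95% Wilson intervals as lines and the counts above the bars, for the germline genes, the other lists and all coding genes. The bars of the germline genes are at 2.08% and, with an island, 2.27%, against 49.4% of all coding genes and 70.2% of coding genes with an island.

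The islands without a peak were not confined to short or weak ones. Under a stricter definition (windows of 500 bp, GC fraction 0.55, CpG ratio 0.65), 30 of 48 germline genes had an island (62.5%, interval 48.4 to 74.8%), against 58.0% of coding genes. The share of coding genes lay inside that interval, so an excess of islands in germline genes was not shown under this rule. A peak was present at 1 of these 30 germline genes (3.33%), against 77.6% of coding genes with such an island. The 44 islands were 210 to 2021 bp long with a median of 681.5 bp. The longest belonged to Taf7l, a testis relative of the TFIID subunit TAF7, with 2021 bp and 152 CpGs. The island of Dazl, an RNA-binding protein that germ cells need for their development, was 1801 bp long with 138 CpGs, and that of Meioc, which keeps meiotic prophase going, was 1631 bp long with 139 CpGs.

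By the count of CpGs around the TSS the germline genes were not richer than other genes, and the CpG-rich ones among them were unmarked. Germline genes had a median of 27 CpGs within 250 bp of the TSS with the most, against 29 for all coding genes and 44 for coding genes that had both an island and a peak. Of the germline genes 20 had 30 or more CpGs, and 0 of these 20 were marked. In the class of 40 or more CpGs, 0 of 12 germline genes were marked, against 82.1% of coding genes. In the class of 30 to 39 CpGs the counts were 0 of 8 germline genes, against 75.5% of coding genes, and in that of 20 to 29 CpGs 1 of 17, against 57.6%. The 11 germline genes with fewer than 20 CpGs were in classes that are seldom marked in general: 21.2% of coding genes with 10 to 19 CpGs and 3.33% of those with 0 to 9.

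**Figure D2:**
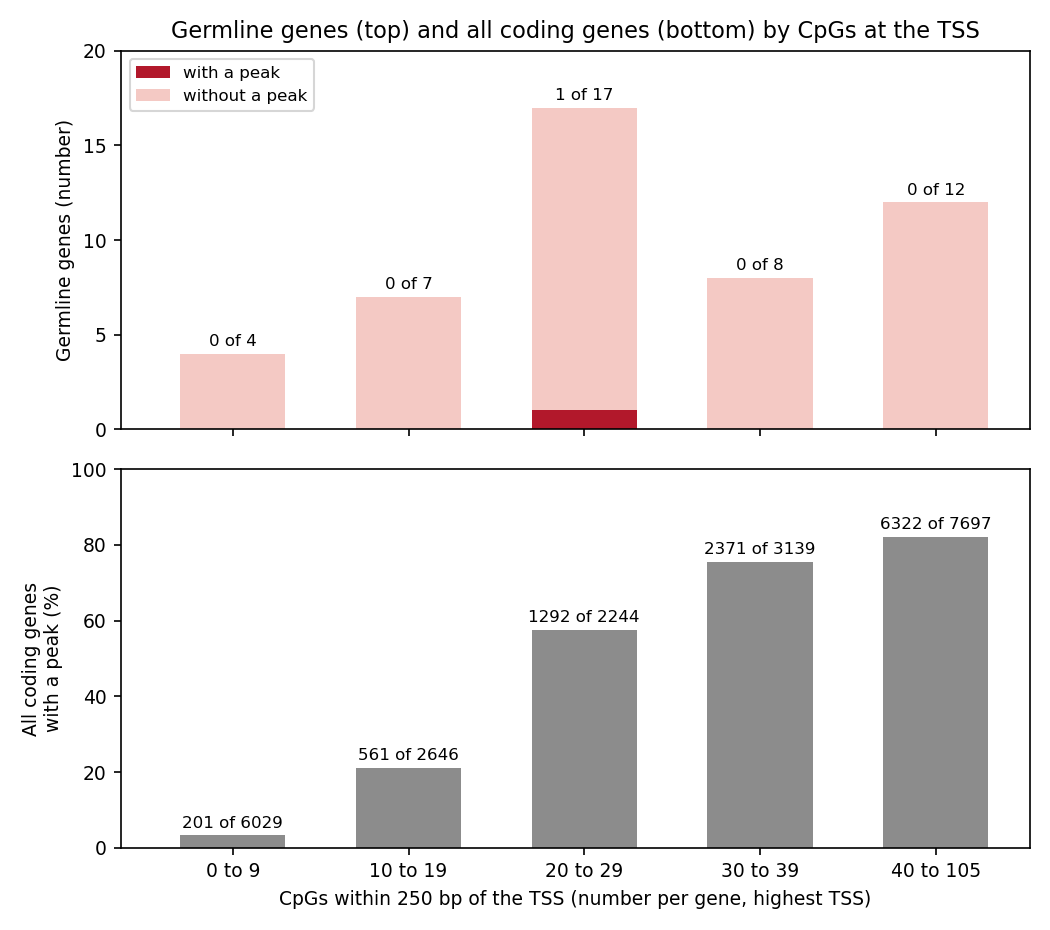
Germline genes with and without a peak (top, number of genes) and the share of all coding genes with a peak (bottom, %) by the number of CpGs within 250 bp of the TSS (horizontal axis). The share of marked coding genes climbs to 82.1% in the class of 40 or more CpGs, in which 0 of 12 germline genes were marked.

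Genes of RNA regulation and the piRNA pathway formed the largest group, and 0 of 16 were marked (interval up to 19.4%). Of the 16, 13 had an island, a class in which 70.2% of coding genes were marked. Dazl and Ddx4, the VASA helicase of germ granules, had 55 and 59 CpGs. The Tudor-domain genes Tdrd1, Tdrd5, Tdrd6 and Tdrd9, which assemble PIWI proteins into granules, had 45, 64, 46 and 25 CpGs, and the nearest peak was 3.34 kb from Tdrd1, 117 kb from Tdrd5, 34.9 kb from Tdrd6 and 4.19 kb from Tdrd9. The PIWI genes Piwil1, Piwil2 and Piwil4, which carry the piRNAs themselves, had 27, 26 and 18 CpGs and a nearest peak at 268, 12.1 and 42.8 kb. Mael, a piRNA pathway factor, had 47 CpGs, and Mov10l1, the helicase that feeds piRNA precursors into the pathway, had 32. Asz1, a mitochondrial anchor of the pathway, and Tex19.1, which acts against transposons, had 27 CpGs each. Tex15, a factor of piRNA-directed silencing, had 0 CpGs within 250 bp of its 1 basic TSS, at 33570544, and no island there. Other annotated Tex15 transcripts start upstream at 33516738 and 33517324, where CpGs were not counted. Nanos2 and Nanos3, translational repressors of the germ line, had 2 and 6 CpGs and no island either.

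The genes of the chromosome axis and the synaptonemal complex were unmarked in 8 of 8 cases. All 8 had an island, a class in which 70.2% of coding genes were marked. Sycp1, which forms the transverse filaments, had 42 CpGs, and Syce2, a central element protein, had 44. Sycp2, Sycp3 and Hormad2, axis proteins, and Syce1, another central element protein, had 27 to 29 CpGs. The axis gene Hormad1 had 34 CpGs and the X-linked crossover gene Tex11 had 33. Syce2 stood in a densely marked region, with 7 peaks within 50 kb and the nearest at 13.2 kb, while the nearest peak to Sycp2 was 1240 kb away.

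The other meiotic genes were unmarked as well. Of the genes of meiotic entry and recombination, Meioc among them, 0 of 4 were marked (interval up to 49.0%). Of the meiotic cohesin genes 0 of 3 were marked (interval up to 56.1%). Each of these genes had an island, a class in which 70.2% of coding genes were marked. Spo11, which makes the DNA breaks of meiosis, and Dmc1, the meiotic recombinase, had 35 and 39 CpGs, with a nearest peak at 19.6 and 52.8 kb. Stra8, which starts meiosis, had 18 CpGs within 250 bp of the TSS but an island of 1129 bp with 64 CpGs. Rec8, Stag3 and Smc1b, the meiotic kleisin, SA and SMC subunits of cohesin, had 24, 41 and 45 CpGs. Rec8 had 7 peaks within 50 kb, the nearest 13.3 kb away at the start of Irf9.

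Among the transcription and chromatin factors 0 of 7 were marked. All 7 had an island, a class in which 70.2% of coding genes were marked. Zbtb16, the PLZF factor of spermatogonial stem cells, had 46 CpGs and an island of 1670 bp with a nearest peak at 148 kb. Taf7l had 35 CpGs, the bromodomain gene Brdt 30, the homeobox gene Rhox13 25, and the helix-loop-helix genes Sohlh1, Sohlh2 and Figla 21, 24 and 26. Of the testis proteins outside these groups, Tex101, a cell-surface protein of germ cells, had 26 CpGs, the dipeptidase gene Dpep3 25, and Slc25a31, the germ cell ADP/ATP carrier, 38, and all 3 were unmarked. The X chromosome held Tex11, Taf7l and Rhox13, 0 of 3 marked, against 33.6% of X-linked coding genes.

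The genes of late sperm and of the egg coat all had few CpGs around their basic TSSs, as did Tex15, Nanos2, Nanos3, Piwil4 and Stra8 among the groups above. Prm1 and Prm2, the protamines, and Tnp1, a transition protein, had 13, 10 and 14 CpGs. Zp1, Zp2 and Zp3, which encode the zona pellucida, had 5, 11 and 11. These 6 genes were unmarked, and none of them had an island under the stricter rule. Few coding genes with so few CpGs were marked, 21.2% of those with 10 to 19 CpGs and 3.33% of those with 0 to 9.

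The peak at Tex14 lay almost wholly on the side of its neighbour. Tex14 encodes a protein of the bridges that join developing germ cells, and Rad51c encodes a DNA repair protein used in somatic cells. Their start sites faced away from each other 111 bp apart inside 1 island of 1472 bp with 94 CpGs. The peak (chr11:87403372-87405290) was 1919 bp wide, narrower than most, at percentile 13.1 of the peaks at coding genes. It reached 1693 bp upstream of the Tex14 TSS and 225 bp downstream of it. From the nearer Rad51c TSS the same peak reached 1582 bp downstream, into Rad51c, and 336 bp upstream. Over the 10649 coding genes with a peak that held a TSS, the peak ran further downstream than upstream in 82.4%, with a median of 2107 bp downstream and 964 bp upstream. Only 0.592% of these genes had a downstream reach of 225 bp or less, and 26.5% had one of 1582 bp or less. Tex14 held 2 more peaks in its body, of 402 and 368 bp, at 42.8 and 65.6 kb from the TSS, and neither overlapped an exon. Which of the 2 genes the shared mark belongs to cannot be told apart in a list of positions.

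Divergent starts did not go with a peak in the other germline genes that had one. A coding TSS on the other strand lay within 1 kb upstream of 3 germline genes, and 1 of the 3 was marked, against 93.5% of coding genes with an island and such a neighbour (1781 of 1904). Coding genes with an island and no such neighbour were marked in 66.8%. Smc1b stood 114 bp from Ribc2, inside an island of 815 bp with 60 CpGs, and the nearest peak to it was 92.2 kb away. Stag3 stood 521 bp from Gpc2, inside an island of 1468 bp with 95 CpGs, and its nearest peak was 14.5 kb away. Smc1b has a relative used outside the germ line, the cohesin gene Smc1a, which stands head to head with Ribc1, the relative of Ribc2, 133 bp apart. A peak of 3107 bp covered both Smc1a and Ribc1. The bases between the start sites of these 3 pairs are given on the strand of the first gene, with each CpG in capitals, to set the marked and unmarked pairs side by side. They are Tex14 and Rad51c (chr11:87404955-87405064, plus strand), Smc1b and Ribc2 (chr15:85131965-85132077, minus strand), and Smc1a and Ribc1 (chrX:152016296-152016427, plus strand).
Tex14-Rad51c: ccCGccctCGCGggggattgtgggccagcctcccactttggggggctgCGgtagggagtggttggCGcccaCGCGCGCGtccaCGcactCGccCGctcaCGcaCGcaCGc
Smc1b-Ribc2: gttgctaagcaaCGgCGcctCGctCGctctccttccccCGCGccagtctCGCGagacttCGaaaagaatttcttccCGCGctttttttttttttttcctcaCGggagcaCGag
Smc1a-Ribc1: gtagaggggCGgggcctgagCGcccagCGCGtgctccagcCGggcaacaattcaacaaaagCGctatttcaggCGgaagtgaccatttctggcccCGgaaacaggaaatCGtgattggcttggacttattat
The unmarked Smc1b run held 13 CpGs in 113 bases, against 15 in 110 bases for Tex14 and 9 in 132 bases for Smc1a, so the unmarked pair had more CpGs than the marked pair of its relative. The Smc1a pair was chosen for display after its peak was seen.

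Another 2 germline genes had a peak inside the annotated gene but away from the coding start. Nanos3 had its basic TSS 5.84 kb from a peak of 2676 bp (chr8:84182391-84185066), which held an island of 892 bp. That peak ended 151 bp from the start of a Nanos3 transcript that is annotated without a coding sequence and is not in the basic set. The microRNA genes Mir181c and Mir181d lay within the annotated span of Nanos3, 3430 and 3604 bp from the peak. Brdt had an unmarked island of 573 bp at its coding start and a peak of 1232 bp (chr5:107359406-107360637) 28.2 kb into the gene. This inner peak held an island of 625 bp and the start of another transcript without a coding sequence. Whether these starts are used in C127 cells was not tested, since RNA was not analysed here.

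**Figure D3:**
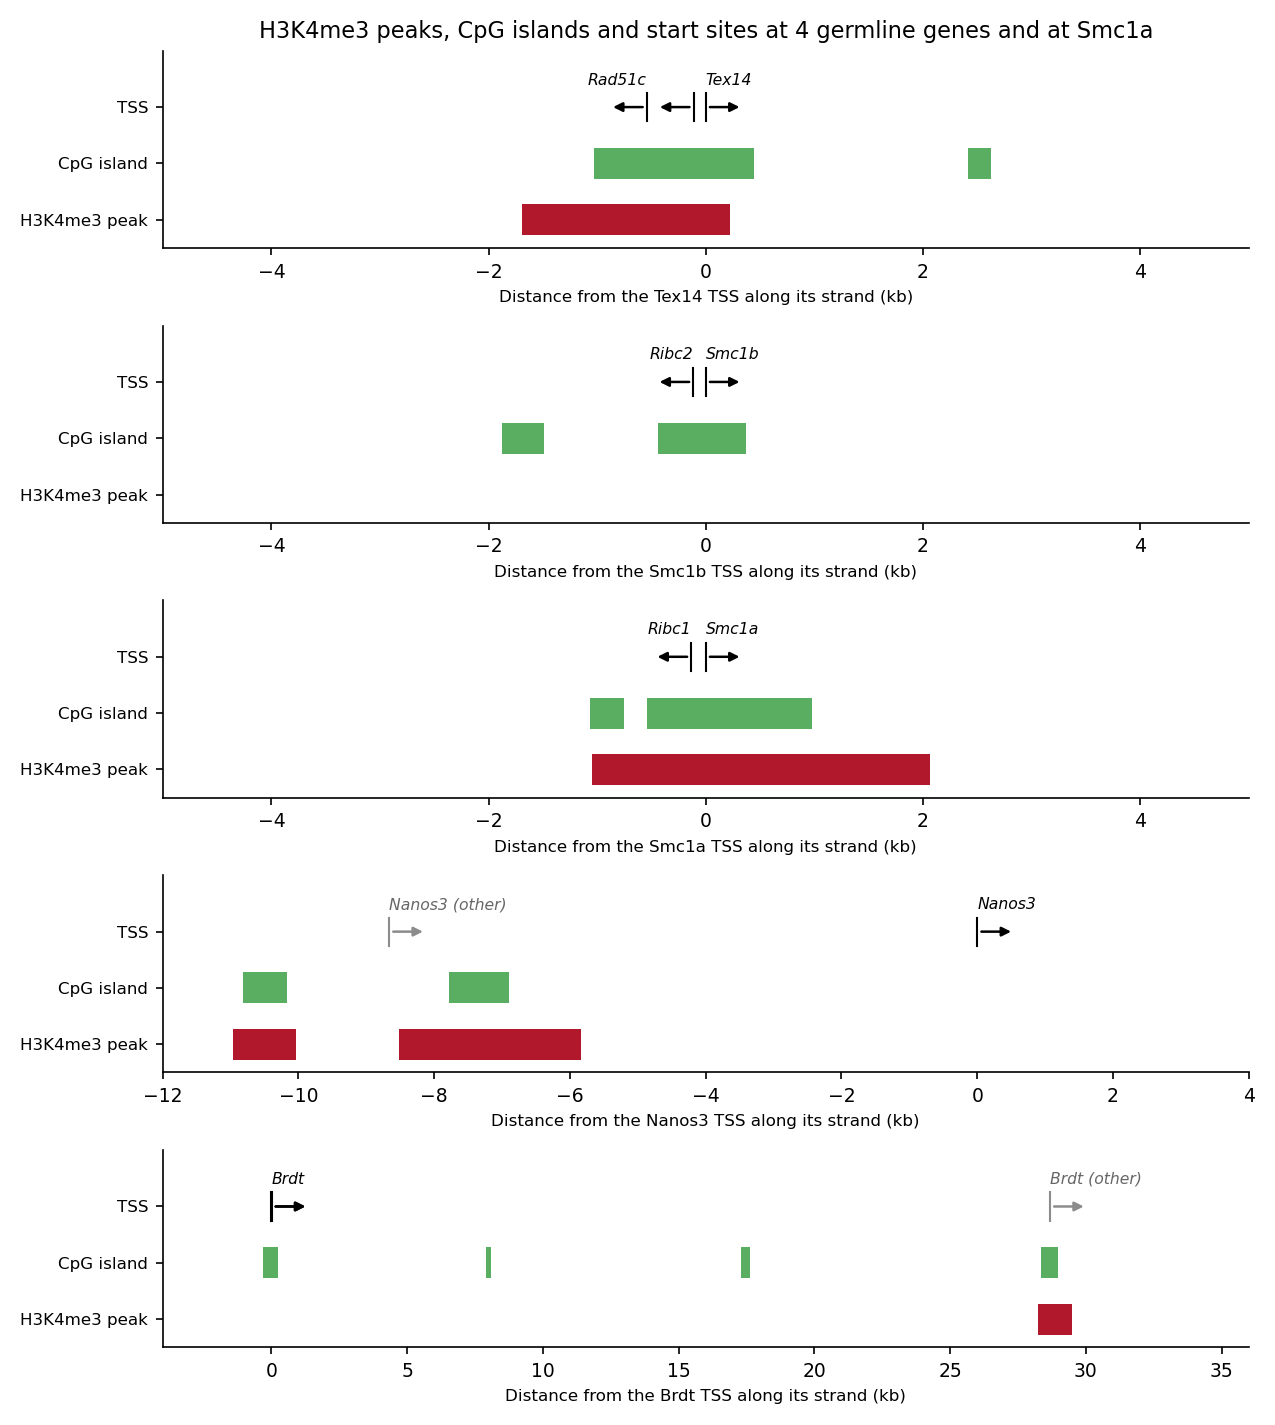
H3K4me3 peaks (red), CpG islands (green) and start sites (arrows, black for basic and grey for other transcripts of the gene) around Tex14, Smc1b, Smc1a, Nanos3 and Brdt, by distance from the TSS in kb along the strand of each gene. The Tex14 peak ends 225 bp past the Tex14 TSS, the Smc1b island has no peak, the Smc1a island lies under a peak of 3107 bp, and the peaks of Nanos3 and Brdt lie 5.84 and 28.2 kb from their coding starts.

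Unmarked germline genes with an island lay about as far from a peak as other unmarked genes with an island, at a median of 54526 bp for 43 germline genes, against 59154 bp for 4367 other coding genes. Over all unmarked genes the distances differed more. The nearest peak was a median of 42843 bp from the 47 unmarked genes (quartiles 13259 and 91257 bp), against 86696 bp from the other 10961 unmarked coding genes (quartiles 26269 and 290026 bp). A peak lay within 10 kb of 9 of the 47, against 11.0% of the other unmarked coding genes, within 50 kb of 24 of the 47 (51.1%), against 38.0%, and within 100 kb of 36 of the 47 (76.6%), against 53.2%. Nanos2 was 2.96 kb from a peak of 3743 bp at Mypop, Tdrd1 3.34 kb from a peak of 2360 bp at Ccdc186, and Tdrd9 4.19 kb from a peak of 2623 bp at Atp5mpl. The protamine genes Prm2 and Prm1 were 4.53 and 9.31 kb from a peak of 5886 bp at Socs1, a cytokine signalling inhibitor. Ddx4 was 7.63 kb from a peak at Slc38a9 and Stra8 8.33 kb from a peak at Wdr91. Meioc was 8.82 kb from a peak of 1109 bp that reached no basic start of another coding or lncRNA gene, and Nanos3 is described above. Of the 47 nearest peaks 40 reached the start of another coding or lncRNA gene and 7 reached none. No germline gene other than Tex14 had a peak within 1 kb of a basic TSS.

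**Figure D4:**
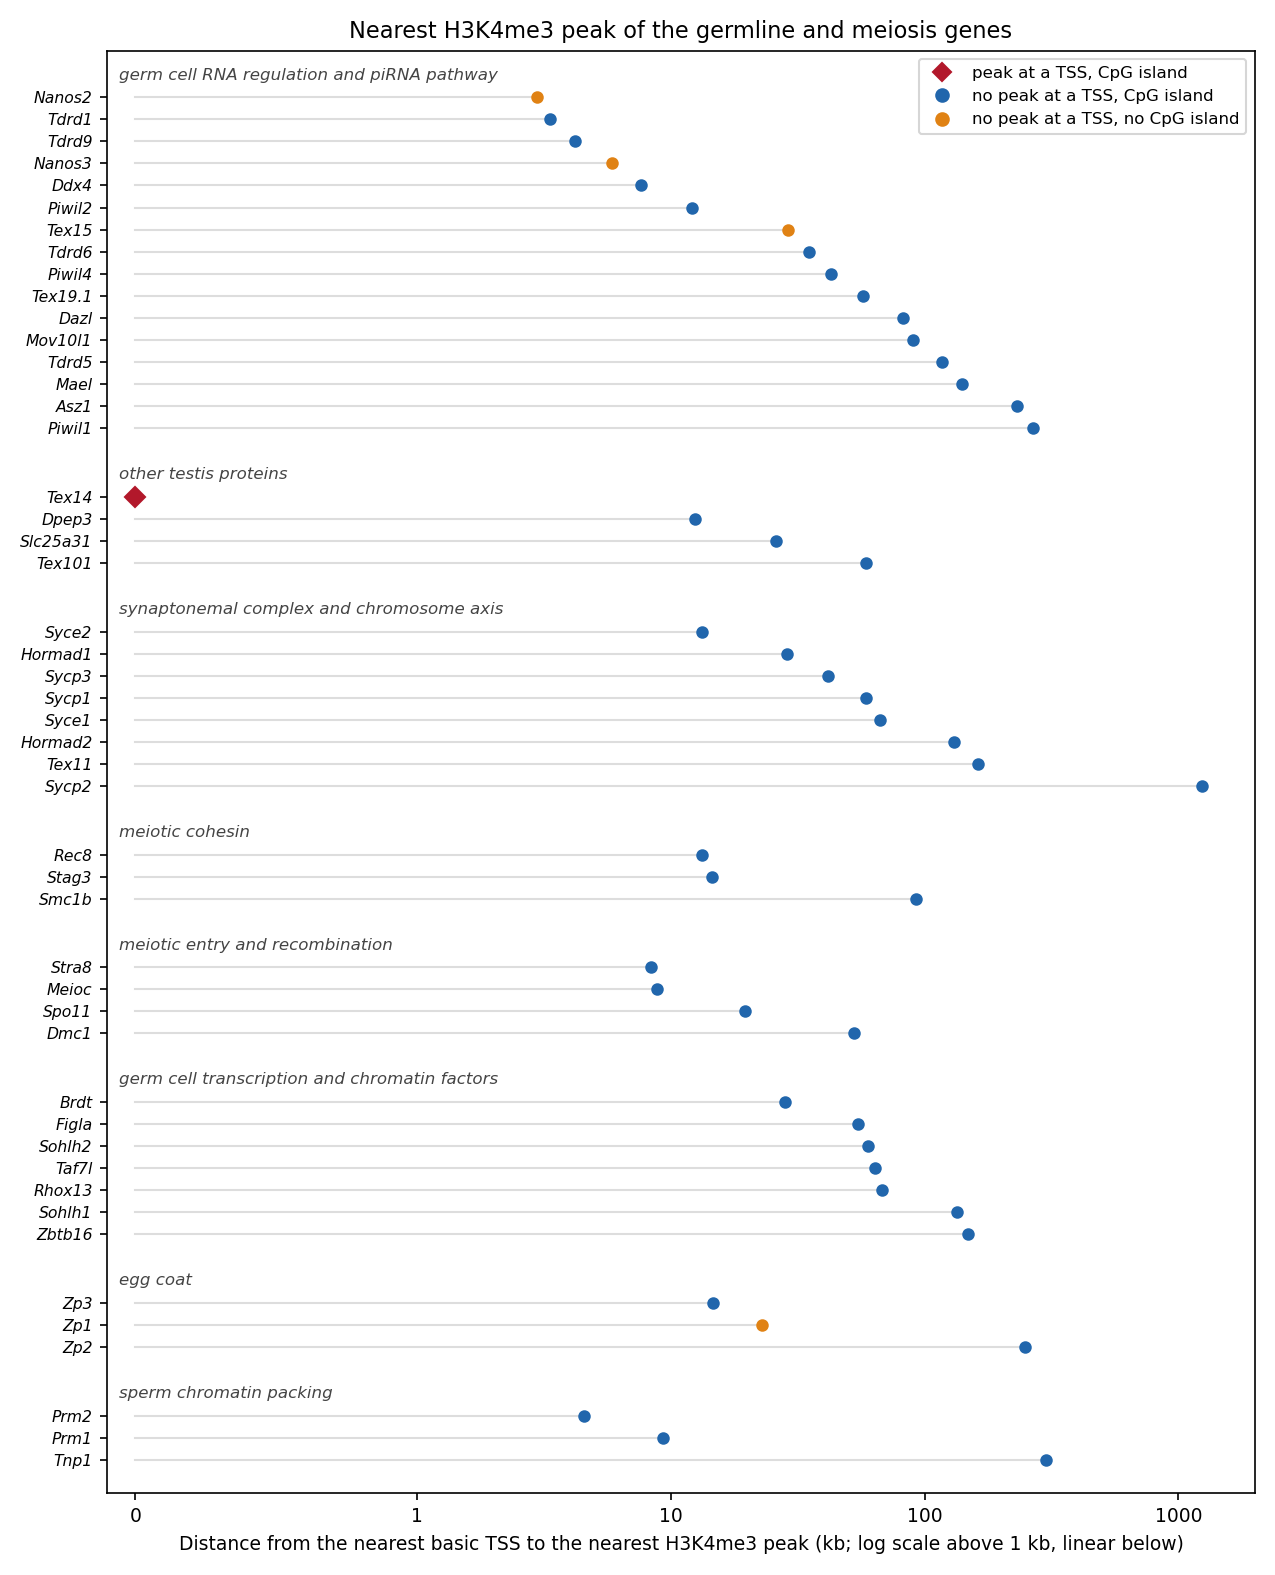
Distance in kb from the nearest basic TSS of each germline gene to the nearest H3K4me3 peak (horizontal axis, log scale above 1 kb and linear below), grouped by role, with colour for the presence of a CpG island and a diamond for the gene with a peak at its TSS. Only Tex14 is at 0, the others run from Nanos2 at 2.96 kb to Sycp2 at 1240 kb.

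Repeated sequence was low at the germline promoters. Reads without a unique position were discarded before the peaks were called, so a repeated promoter could lack a peak for that reason. Of the 50-bp words within the promoters, 0% recurred elsewhere in the genome for 46 of 48 genes, and Tex19.1 and Spo11 were the other 2. Their highest shares were 4.40% for Tex19.1, which has a close paralog, and 5.49% for Spo11.

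Short words known from germline promoters were looked for from 250 bp before to 50 bp after each TSS on both strands. The E-box word CACGTG, which the MGA and MAX proteins bind, stood in 16 of 48 germline genes (33.3%), against 10.0% of all coding genes. Among genes with an island the shares were 36.4% of germline genes and 12.7% of coding genes. The run printed for Dazl holds this word as caCGtg at positions -218 and -198, counted from its inner TSS to the first base. Sohlh1 had it at -231, -211 and -192 and Hormad1 at -57 and -20 of its first TSS. The other genes with it were Ddx4, Mael, Tdrd1, Tdrd9, Piwil1, Mov10l1, Sycp1, Sycp3, Stag3, Taf7l, Slc25a31, Brdt and Zp3. The word TCCCGC, part of the site bound by E2F6, stood in 20 of 48 germline genes (41.7%), against 31.3% of coding genes, but with an island the shares were 45.5% of germline genes and 43.8% of coding genes. Both words stood in 9 germline genes. The cyclic AMP response word TGACGTCA stood in 0 of 48, against 2.93% of coding genes. A word in the sequence is a description and not a measured binding site.

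Close relatives of the germline genes that serve outside the germ line were marked without exception among those listed. A peak was present at 1 of 48 germline genes, against 20 of 20 such relatives (interval 83.9 to 100%). With shared peaks not counted the relatives were marked in 17 of 20 cases, against 0 of 48 germline genes and 33.0% of coding genes. All 20 relatives had an island, a class in which 70.2% of coding genes were marked, or 82.1% with 40 or more CpGs. Beside the meiotic cohesin genes Stag3, Rec8 and Smc1b stood Stag1, Stag2, Rad21 and Smc1a with peaks of 4575, 5121, 3767 and 3107 bp. Brd2 and Brd3, bromodomain relatives of Brdt, had peaks of 12060 and 5102 bp, that of Brd2 shared with H2-DMa. Taf7, the relative of Taf7l, had a peak of 2395 bp. Of the Argonaute genes, relatives of the PIWI genes, Ago1, Ago2, Ago3 and Ago4 had peaks of 1504, 3936, 2646 and 1247 bp. Slc25a31 had no peak, against peaks of 3758 and 1600 bp at Slc25a4 and Slc25a5, the somatic ADP/ATP carriers. Mov10, Ddx3x, Nanos1, Tdrd3 and Snd1 had peaks of 3306, 4291, 3212, 3625 and 4755 bp. The germline genes had a median of 27 CpGs within 250 bp of the TSS, against 50 in the relatives (range 29 to 83). The peaks of the relatives had a median width of 3691.5 bp, against 3254 bp for the widest peak of all marked coding genes. Of these peaks of the relatives 19 of 20 ran further downstream of the TSS than upstream, against 82.4% of coding genes whose peak held a TSS.

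Genes for proteins known to repress germline promoters were marked in 23 of 24 cases (95.8%, interval 79.8 to 99.3%). All 24 had an island, and the 82.1% of coding genes marked in the class of 40 or more CpGs lies inside that interval. The E2F6, MGA, MAX, L3MBTL2 and PCGF6 subunits of the Polycomb complex named above had peaks of 1765, 1380, 3460, 2158 and 1858 bp at E2f6, Mga, Max, L3mbtl2 and Pcgf6. The DNA methyltransferase genes Dnmt1 and Dnmt3b had peaks of 3774 and 1706 bp. Setdb1, an H3K9 methyltransferase gene, had a peak of 394 bp, and its cofactor gene Atf7ip was the 1 gene of the list without a peak. A peak at these genes does not show that their products acted on the germline genes.

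A further list of 57 germline and meiosis genes was marked in 13 cases (22.8%, interval 13.8 to 35.2%), below the 49.4% of all coding genes. With an island 12 of 47 were marked (25.5%), against 70.2% of coding genes with an island. Some of the 13 are known to act outside the germ line too, such as Sun1, a nuclear envelope protein, Odf2, a centriole and sperm tail protein, Dazap1, an RNA-binding protein, and Tdrd7, a granule protein also needed in the lens. The unmarked genes of this list were not sorted by such use, so whether it goes with a peak was not tested. Sgo2a, which protects cohesion at centromeres, Mybl1, a MYB factor, and Rfx2, a factor of ciliated cells, had peaks of 3286, 4316 and 2205 bp. Hsf2bp shared its peak with Rrp1b and Msh5, a crossover gene, shared one of 9626 bp with Clic1, a chloride channel gene. Tdrkh, a piRNA trimming factor, and Crem also shared theirs. Prdm9, the methyltransferase that places the breaks of meiosis through H3K4me3, had an unshared peak of 1537 bp at 1 of its 3 start sites. The m6A reader gene Ythdc2, which is required in meiosis, had a peak of 2256 bp. Another 35 genes of this list had an island and no peak.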

How the data were processed

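H3K4me3 ChIP-seq was carried out by the authors on formaldehyde-crosslinked C127 chromatin. The authors mapped the reads with bowtie2 to mm10, dropped reads that mapped to several places and PCR duplicates, and ran MACS on each replicate with a matched control at a false discovery rate of 0.01. Peaks had to overlap in all 3 replicates, and neighbours within 250 bp were merged. The deposited list holds 3 columns (chromosome, start, end) and no score, so peaks could not be ranked and a peak present in only some replicates is not in it. The 21 other samples were not used here.

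Positions were made 1-based and compared with GENCODE vM21 and the GRCm38.p6 reference, the same build, on 20 chromosomes. Islands were found in the sequence with repeats kept (177750 islands, 21349 under the stricter rule) and say nothing of methylation. Where a gene had several TSSs, the one nearest a peak or with the most CpGs was used. A peak was shared when another coding or lncRNA gene had a TSS within 250 bp of it. The island search was tested on simulated data. No test was run. The 48 genes, the other lists and the alternatives were proposed with earlier results of these data known, although the rule for membership uses names only. Every germline gene was named, and from the other lists mainly those unlike their list and the relatives of the germline genes. A few of these relatives and 1 promoter sequence are not reported here. Python 3.11.15, numpy 2.4.6 and matplotlib 3.10.9 were used.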

Additional observations from a re-analysis of the deposited data

How the results depend on the processing

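Tex14 stayed marked with a peak distance of 0 or 1000 bp, with coding transcripts only, with peaks of at least 1000 bp and with RefSeq start sites added (an alternative chosen after seeing the data), each giving 1 of 48 germline genes (2.08%). With 1 TSS per gene, taken at the outer end of the annotated gene, Nanos3 joined it (4.17%, against 46.7% of coding genes), and with all annotated transcripts Nanos3 and Brdt joined it (6.25%, against 50.2%). When a peak had to hold the TSS and 250 bp on either side, 0% of germline genes were marked, against 45.6% of coding genes, and when shared peaks were not counted, 0%, against 33.0%. Both follow from the position of the Tex14 peak described above. The stricter island rule lowered the share of germline genes with an island to 62.5%, against 58.0% of coding genes (91.7%, against 68.1%, with the wider rule), because fewer stretches pass it, and island distances of 0 and 1000 bp gave 85.4 and 93.8%. The share of these genes with a peak lay between 2.22 and 3.33% under each island alternative. The median distance from an unmarked gene to the nearest peak was 52806 bp with 1 TSS per gene, against 42843 bp. Read depth is unknown, so a mark too weak to be called in all 3 replicates cannot be told from none. No paired analysis was possible because the results come from no test.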

Other observations

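In the further list of germline genes, 3 unmarked genes had a peak close to but outside the 250 bp limit. Ddx25, a testis RNA helicase gene, was 499 bp from a peak, Tnp2, a transition protein gene, 1082 bp, and Gdf9, an oocyte growth factor gene, 1489 bp. They would be counted as marked or not depending on that limit, while the 47 unmarked genes among the 48 had their nearest peak at least 2955 bp from a basic TSS. Nanos3 and Brdt do have a peak at the start of a transcript outside the basic set, as described above.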
